A study of Rattus norvegicus with 59 samples.

Results

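Gene expression in the nucleus accumbens was compared between rats of an inbred line that prefers alcohol (iP) and rats of an inbred line that does not (iNP), with 6 arrays per line. These 12 arrays are those whose title names the accumbens, out of 59 arrays from 5 brain regions of the same rats, and the line was read from the title. All rats were adult males of 1 inbred line of each kind, named iP5C and iNP1 in the design, housed in pairs with free access to chow and water, and the labels name no ethanol treatment. Each array holds the RNA of 1 rat: iP animals are numbered 1 to 6 and iNP animals 7 to 12. A difference tied to alcohol preference and any other difference fixed by inbreeding between these 2 lines cannot be told apart. In whole tissue, fewer cells of a type and less RNA per cell cannot be told apart either.

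The nucleus accumbens is the ventral part of the striatum. It receives dopamine from the ventral tegmental area and excitatory input from cortex, hippocampus and amygdala, and is known for its part in reward and in drinking behaviour. Most of its neurons are GABA-releasing medium spiny neurons, which carry D1 or D2 dopamine receptors and the peptides dynorphin, substance P or enkephalin. The question of the comparison was which transcripts differ in this region between the preferring and the non-preferring line.

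The 12 arrays carried the profile of the labelled tissue. Signals are given as log2 of the deposited linear intensity, with values below 16 set to 16. Cartpt, the peptide precursor gene that marks the accumbens within the striatum, lay between 10.16 and 11.18 on the accumbens arrays and at most at 8.75 on any array of another region. Drd1, the D1 dopamine receptor gene, lay between 10.86 and 11.47, inside its range in dorsal striatum (10.37 to 11.82) and above every cortex (at most 8.42) and hippocampus array (at most 8.21). Ttr, a choroid plexus gene, lay between 8.13 and 8.81, where hippocampus reached 15.55.

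**Figure D1:**
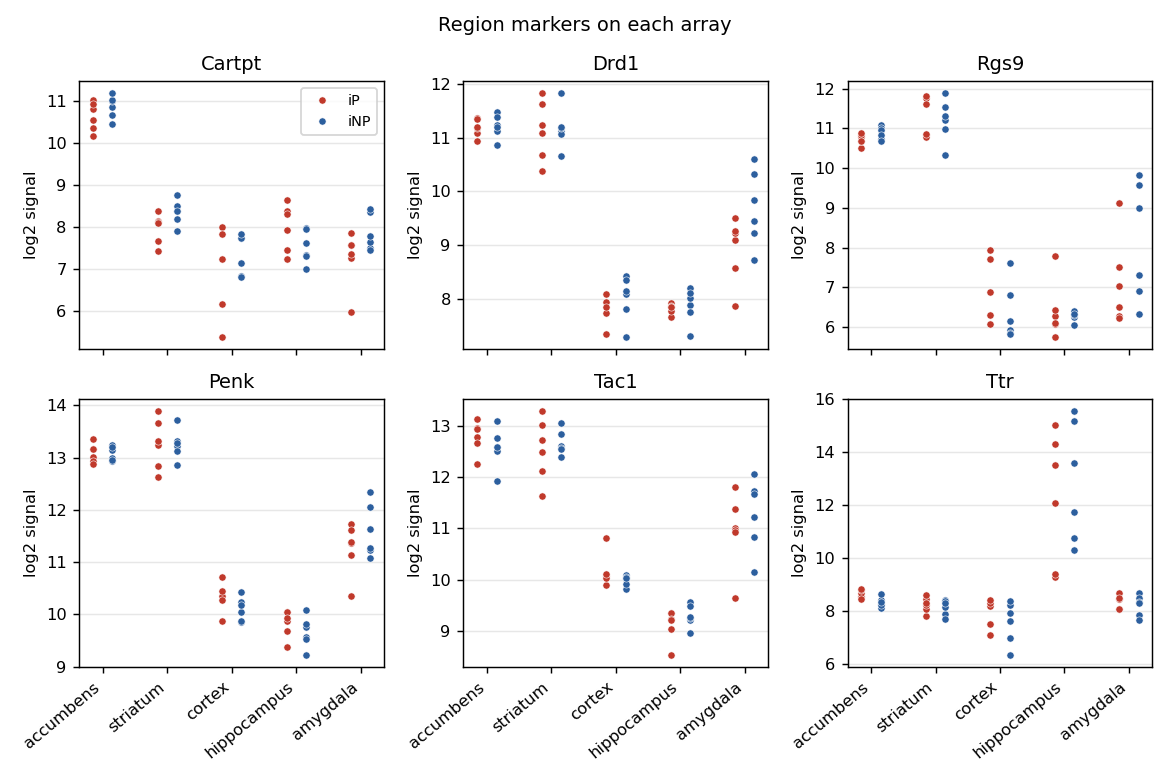
Log2 signal (y axis) of 6 region marker genes on each array, by brain region (x axis); each point is 1 animal, red for iP and blue for iNP. Cartpt separated the 12 accumbens arrays (10.16 to 11.18) from all others (at most 8.75), while Drd1, Rgs9, Penk and Tac1 lay in ranges that overlapped those of dorsal striatum.

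Median signal ran from 306 to 393 over the accumbens arrays, and 1 array stood apart. Accumbens of iP animal 4 had the lowest median signal, a hexokinase 3′ to 5′ ratio of 3.91 (log2; at most 1.24 on the other accumbens arrays) and a mean correlation of 0.925 with the other iP arrays, where the others in either line reached 0.951 to 0.968. Its median correlation with amygdala arrays (0.9227) was about that with accumbens arrays (0.9217). Of all 59 arrays, 5 correlated better with another region than with their own: this one, cortex of iP animal 5 (0.8102 with its own region and 0.8318 with amygdala), amygdala of iP animal 1 (0.9300, and 0.9539 with cortex), and amygdala of iNP animals 7 (0.9512, and 0.9541 with accumbens) and 8 (0.9514, and 0.9516 with accumbens). Of 15 measures of RNA quality, signal and cell type markers, the mean correlation with the own group differed between the lines by exact permutation (0.948 in iP and 0.962 in iNP; two-sided p = 0.00649, adjusted p = 0.0974), and the other 14 had p of 0.0909 or more. Results were computed with all 12 arrays and again without iP animal 4.

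Accumbens signals of iP and iNP rats differed in a small set of probe sets, some of them by large factors. Whether these differences reflect transcript level or a sequence difference between the lines at the probes was not tested. Hs6st1, Akap11, Mfsd10 and Lyz2 were higher in iP by more than 1 on the log2 scale. Tmtc3, Ddx42, Slit3 and Paqr3 were lower by more than 1, as were Lysmd4 and RT1-Bb on 1 probe set each. A brighter probe set differed by -0.94 for Lysmd4 and by 0.30 for RT1-Bb. Of 5244 probe sets tested, 30 (0.572%) passed the limma test at an adjusted p under 0.05, 10 of them (0.191%) higher and 20 (0.381%) lower in iP. The values of the 6 iP and 6 iNP rats did not overlap in 28 of these 30, against 56 of all 5244 (1.07%). The typical probe set differed little: the median difference over all probe sets was -0.02 and the median absolute difference 0.12 (log2). At an unadjusted p under 0.05 there were 370 of the 5244, against which the unadjusted counts given for gene lists can be read. Of the 30 probe sets, 23 carry 1 gene symbol and stand for 22 genes, 2 carry several symbols and 5 carry none.

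Without iP animal 4 there were 37 calls, and 29 of the 30 were among them. Leaving out 1 animal at a time gave between 19 calls (without iNP animal 9) and 37, with 20 without iNP animal 11. In the 24 to 26 alternative settings run for each probe set, 18 of the 30 stayed called in all of them, including each of the 12 that leave out an animal. The other 12 lost the call at least once, which is stated beside each gene.

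**Figure D2:**
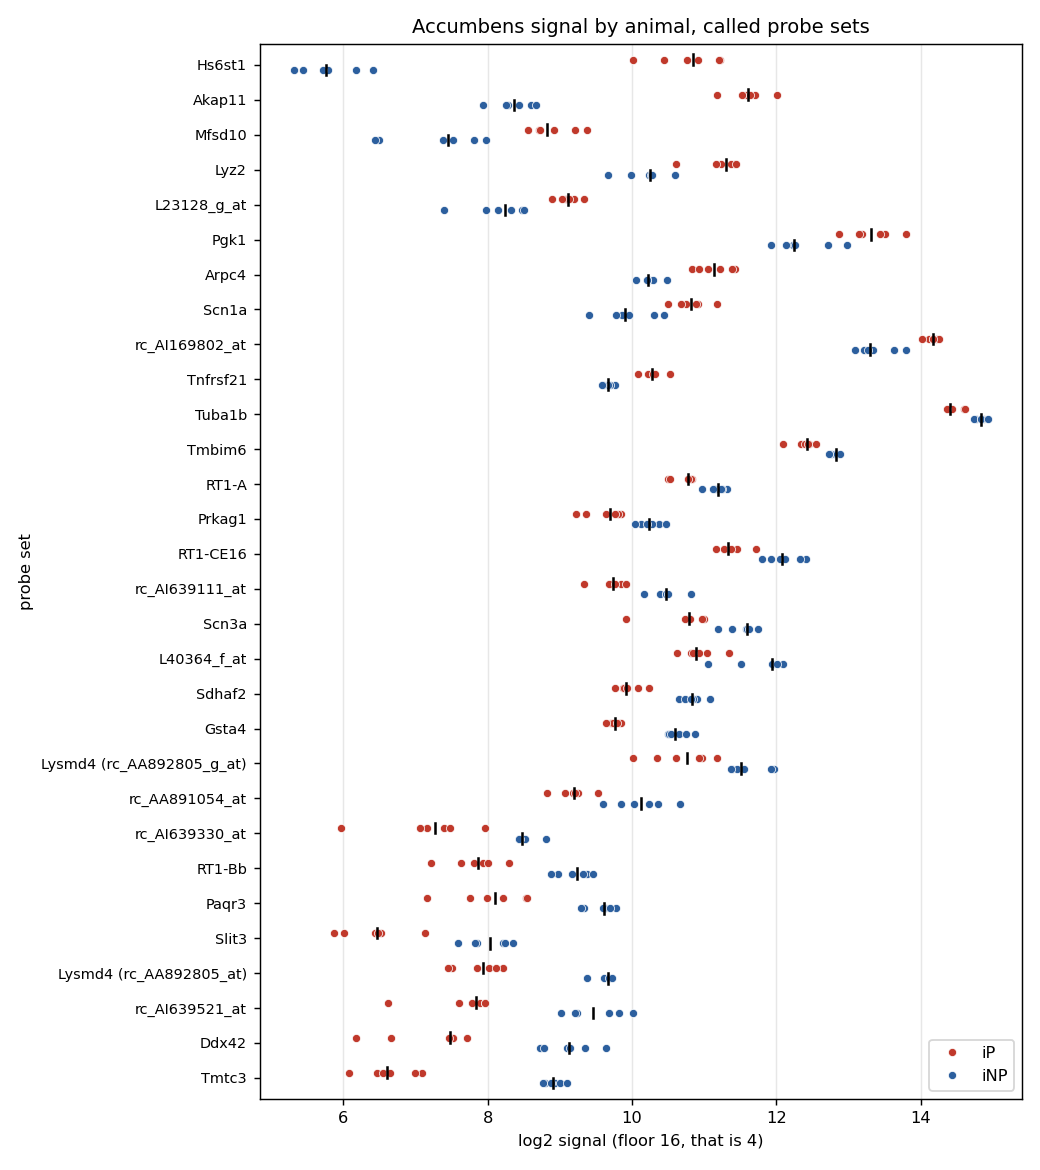
Log2 signal (x axis) of the 30 called probe sets (y axis, ordered from the largest rise to the largest fall in iP) in the 6 iP (red) and 6 iNP rats (blue); black ticks are the line medians, and probe set names stand where there is no single gene symbol. The lines are fully separated in 28 of the 30, and overlap in Pgk1 and L40364_f_at.

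The gene with the widest gap encodes a heparan sulfate 6-O-sulfotransferase, Hs6st1, which adds sulfate to the sugar chains of cell surface proteoglycans and so shapes their binding of growth and guidance factors. The Hs6st1 signal had a lowest value of 10.01, a median of 10.84 and a highest value of 11.22 in iP, and of 5.32, 5.76 and 6.41 in iNP. Every iP rat was above every iNP rat, and the iNP signal was near the floor of 4. The difference in measured signal was 4.95 ± 0.24 (log2, SE; n = 6 and 6; limma adjusted p = 6.88e-09). Without iP animal 4 it was 5.10 ± 0.22.

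Slit3 encodes a secreted guidance protein that acts through Robo receptors and binds heparan sulfate. The Slit3 signal ran from 5.88 through a median of 6.46 to 7.13 in iP and from 7.59 through 8.03 to 8.35 in iNP. The lines did not overlap, and Slit3 was lower in iP by a log2 difference of -1.60 ± 0.26 (limma adjusted p = 0.00685). Of the list of axon guidance genes, 23 in number, 10 were tested. Slit3 fell, 0 rose and 9 did not pass (8 of the 10 differences were below 0, with a median of -0.29 against -0.02 over all probe sets). Among those not called, Unc5b, a netrin receptor gene, differed by -0.40 (adjusted p = 0.694) and Slit1 by 0.19 (adjusted p = 0.825).

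Akap11 encodes an anchoring protein that holds protein kinase A near its targets. The Akap11 signal was 11.18 at the lowest, 11.61 at the median and 12.01 at the highest in iP, and 7.94, 8.36 and 8.67 in iNP. The gap between the lowest iP and the highest iNP rat was wider than the spread within either line. The difference was 3.24 ± 0.15 (log2), or 9.4-fold (limma adjusted p = 6.66e-09). Of 36 genes in the list of cyclic AMP and calcium kinase signalling, 27 were tested: Akap11 rose, 0 fell and 26 did not pass, and the list median was -0.04. The regulatory subunit of protein kinase A that was brightest in the list, Prkar1b, differed by -0.19 (adjusted p = 0.773), and Calm2, a calmodulin gene, by -0.12 (adjusted p = 0.796). Prkag1, which encodes a subunit of the energy sensor AMP-activated kinase and was outside that list, fell by 0.64 ± 0.13 (adjusted p = 0.0319), with iP between 9.23 and 9.84 and iNP between 10.04 and 10.47. The Prkag1 call was lost in 9 settings, with quantile normalization, with median centring, or without any of iP animals 1, 2 and 5 and iNP animals 7, 9, 10 and 12 (adjusted p up to 0.0894).

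A pair of voltage-gated sodium channel genes moved in opposite directions. Scn1a encodes the pore-forming subunit NaV1.1 and Scn3a that of NaV1.3, which is most abundant early in life. The Scn1a signal ran from 10.50 through 10.82 to 11.18 in iP and from 9.41 through 9.91 to 10.44 in iNP, higher in iP by 0.86 ± 0.16 (limma adjusted p = 0.0262). The Scn3a signal ran from 9.91 through 10.79 to 11.00 in iP and from 11.19 through 11.59 to 11.74 in iNP, lower in iP by a log2 difference of -0.82 ± 0.17 (adjusted p = 0.0332). In each gene the lines did not overlap, and the lowest Scn3a value was that of iP animal 4; without this rat the difference was -0.66 ± 0.11 (adjusted p = 0.00818). A further Scn3a probe set on the same sequence record, not called, differed by -0.90 (adjusted p = 0.215). The other 5 tested genes of the sodium channel and pump list, of 13, did not pass, among them Atp1b1 (-0.10) and Atp1b2 (-0.13), which encode subunits of the sodium pump. The Scn1a call was lost in 9 settings: with no signal filter, with the Gapdh ratio as a covariate, or without any of iP animals 1, 2 and 3 and iNP animals 9, 10, 11 and 12 (adjusted p up to 0.0809). The Scn3a call was lost in 11: with no signal filter, no intensity trend or the Gapdh covariate, or without any of iP animals 1, 3 and 6 and iNP animals 7, 8, 10, 11 and 12 (adjusted p up to 0.147).

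Gsta4, a glutathione transferase that detoxifies products of lipid peroxidation, was lower in iP. Its signal ran from 9.64 through 9.76 to 9.84 in iP and from 10.50 through 10.60 to 10.87 in iNP. The 6 iP rats lay within 0.2 of one another and all below the iNP rats, with a difference of -0.88 ± 0.09 (limma adjusted p = 0.000138). A dimmer probe set on the same record differed by -0.51 (adjusted p = 0.291). Of 32 genes of glutathione and alcohol metabolism, 20 were tested; Gsta4 fell, 0 rose and 19 did not pass (list median 0.06), among them Gpx4 (0.03), which reduces lipid peroxides, and Gstm1 (0.14). Among 19 genes named in work on alcohol preference, 11 were tested and Gsta4 was the single call, lower, with 10 not called and a median of -0.04. Gsta4 was put on that list with its difference in these rats known, so its call there is no independent evidence.

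Neuropeptide Y (Npy), whose lower level in some brain regions of preferring rats is part of the literature on these lines, ran from 11.26 through 11.45 to 11.82 in iP and from 11.59 through 11.73 to 11.92 in iNP. These ranges overlapped, and the difference of -0.22 ± 0.11 did not pass the test in accumbens (adjusted p = 0.718). Crh, the corticotropin-releasing hormone gene, differed by -0.14 (adjusted p = 0.904) and Pdyn, the dynorphin precursor gene, by 0.01 (adjusted p = 0.995). Drd2 and Oprm1, the genes of the D2 dopamine and mu opioid receptors, were under the signal filter and were not tested.

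The transmitter systems that define the accumbens gave no call. Of 24 medium spiny neuron markers, 15 were tested and 0 passed by limma (2 at an unadjusted p under 0.05), with a median difference of -0.01. Penk, the enkephalin precursor gene, had a median of 13.09 in iP and 13.07 in iNP and differed by 0.01, with a 95% interval from -0.20 to 0.21. Drd1 had medians of 11.19 and 11.21 and differed by -0.03 (95% interval -0.27 to 0.21). For both genes the iP and iNP rats covered nearly the same range. Tac1, the substance P precursor gene, differed by 0.22 ± 0.18 and Cartpt by -0.22 ± 0.16, neither called (adjusted p = 0.799 and 0.794). Of 20 genes of dopamine receptors and signalling, 13 were tested and 0 passed (0 at an unadjusted p under 0.05; median -0.04), and Drd3, the D3 receptor gene, differed by -0.15. The Drd3 probe set is bright in every region while the other Drd3 probe set is near the floor, so its signal may not be of that gene. Of 8 opioid peptide and receptor genes, 5 were tested and 0 passed (0 unadjusted; median 0.01).

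**Figure D3:**
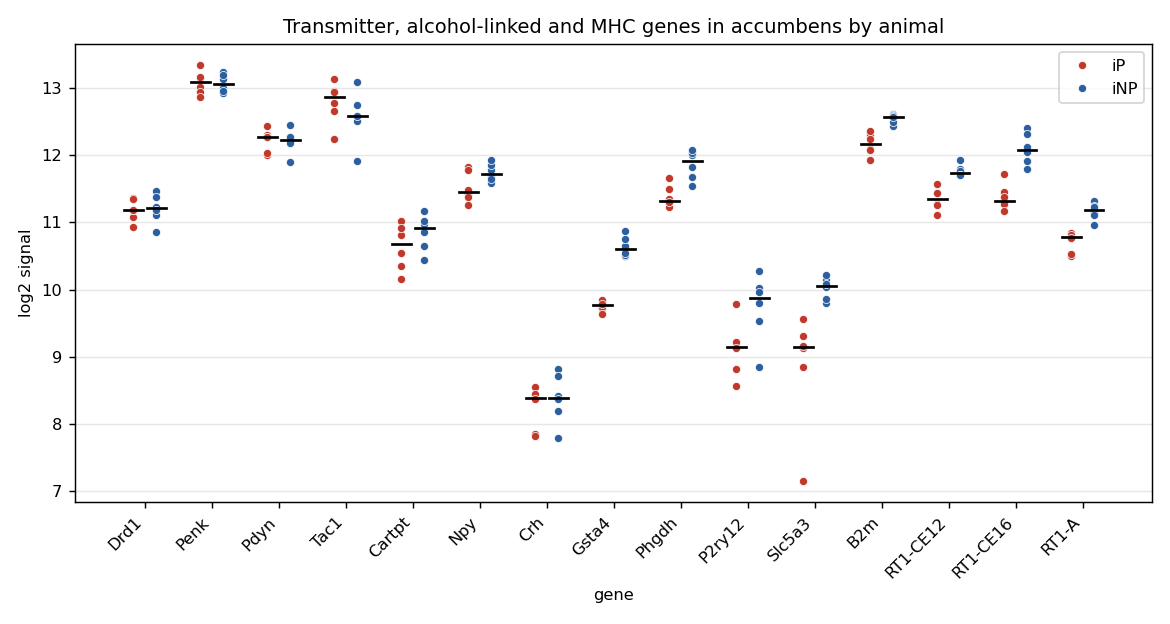
Log2 signal (y axis) of 15 genes (x axis) in the accumbens of each iP (red) and iNP rat (blue); black bars are line medians and the brightest tested probe set stands for a gene. The transmitter and peptide genes from Drd1 to Crh overlap between the lines, Gsta4, RT1-CE16 and RT1-A are lower in iP and called, and the lowest Slc5a3 value, 7.15, is iP animal 4.

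Receptor and activity genes gave the same count. Of 9 tested GABA-A receptor subunit genes 0 passed (1 at an unadjusted p under 0.05; median -0.07), with Gabrb1 at 0.41 (adjusted p = 0.472) and Gabrb2 at -0.04. Of 14 ionotropic glutamate receptor genes 0 passed (3 unadjusted; median -0.08), with Gria2, an AMPA receptor subunit gene, at -0.47 (adjusted p = 0.576). All 5 tested metabotropic glutamate receptor genes had differences below 0 and 0 passed (1 unadjusted; median -0.27). Among them Grm3 differed by -0.59 (adjusted p = 0.523), and by -0.36 without iP animal 4, whose value of 9.49 lay below the other iP rats (10.6 to 11.1). Of 17 genes induced by neuronal activity 0 passed (0 unadjusted; median 0.01), and Egr1 (-0.02) and Arc (0.11) differed little. Peptides of interneurons (15 tested), serotonin (10), cholinergic (9) and synaptic vesicle genes (18) had 0 calls each, with medians of 0.04, 0.02, -0.03 and -0.01. At an unadjusted p under 0.05 these 4 lists held 0, 0, 0 and 1 genes.

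**Figure D4:**
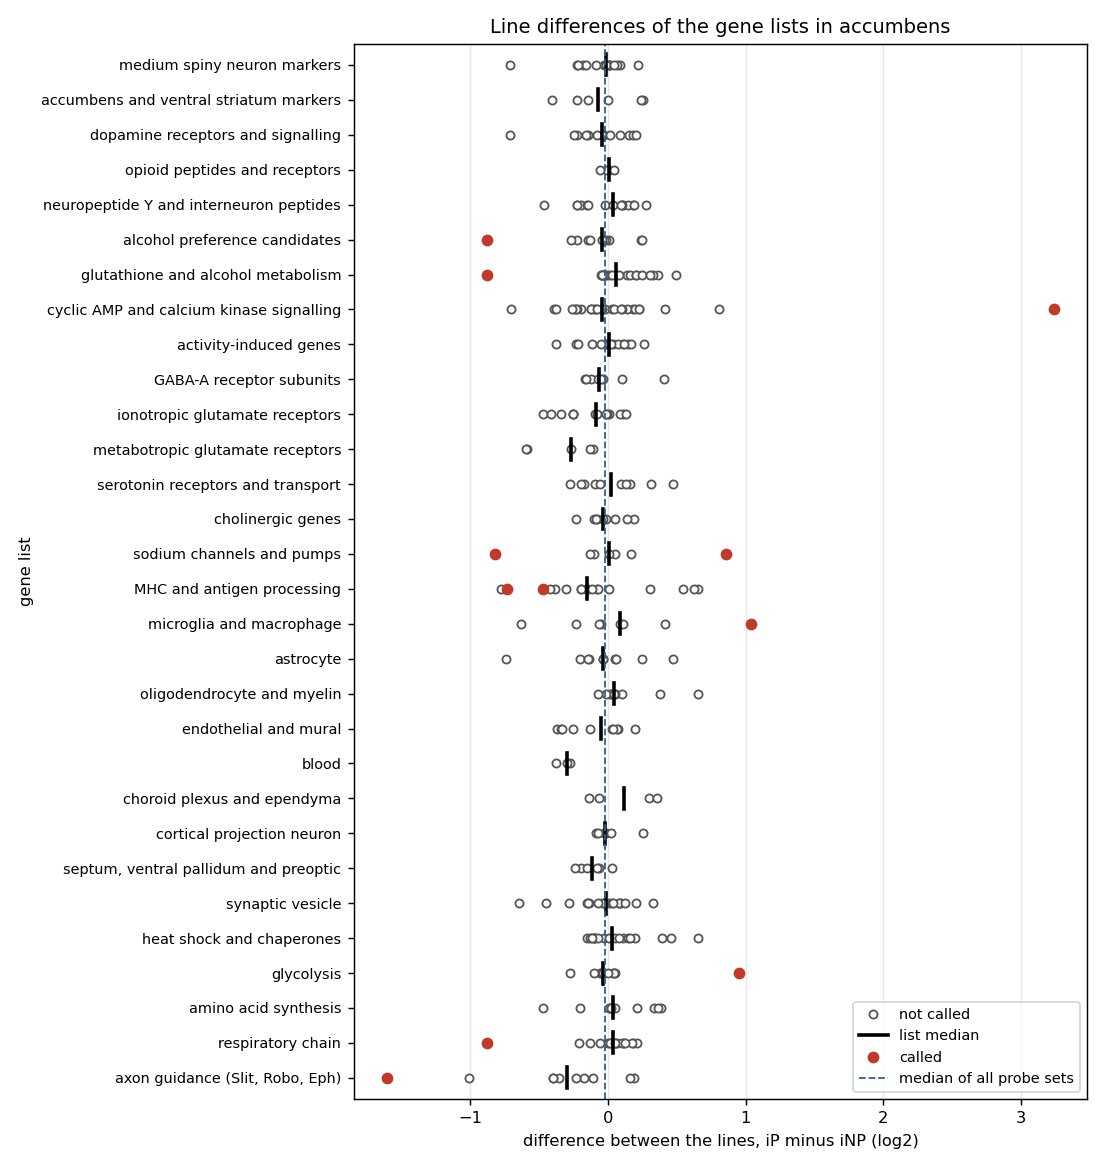
Difference between the lines (x axis, iP minus iNP, log2) of each tested gene in 30 lists (y axis); open circles are genes not called, red circles called genes, black ticks list medians, and the dashed line is the median of all probe sets (-0.02). Most lists centre near the dashed line, and the lists with a red circle hold 1 called gene each, other than the sodium channel and MHC lists with 2 each.

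Genes of the major histocompatibility complex (MHC), whose class I products present peptides on the cell surface and which in the rat carry the prefix RT1, were called in both directions: RT1-CE16, RT1-A and RT1-Bb on 1 of its probe sets fell, while L23128_g_at, a probe set annotated to several RT1 class I genes and so not named here, rose (0.97, with no overlap). RT1-CE16, a class I heavy chain gene, ran from 11.16 through 11.33 to 11.72 in iP and from 11.80 through 12.08 to 12.41 in iNP, a difference of -0.73 ± 0.12 (limma adjusted p = 0.00774). RT1-A, a further class I heavy chain gene, ran from 10.50 through 10.78 to 10.84 in iP and from 10.97 through 11.19 to 11.32 in iNP, a difference of -0.47 ± 0.10 (adjusted p = 0.0417). In both genes every iP rat was below every iNP rat. The same held for B2m, the class I light chain gene (-0.38, adjusted p = 0.0813), and RT1-CE12 (-0.42, adjusted p = 0.067), which were not called. The RT1-A call was lost in 13 settings: with quantile normalization, median centring or no intensity trend, or without any animal other than iP animal 4 and iNP animal 8 (adjusted p up to 0.136). The probe sets of both class I genes carry the manufacturer's suffix for sets that match several members of a family, and which member gives the signal is uncertain.

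RT1-Bb, the beta chain gene of a class II molecule, gave values that differ by probe set. On the called one, RT1-Bb ran from 7.21 through 7.87 to 8.29 in iP and from 8.87 through 9.24 to 9.46 in iNP, lower in iP by a log2 difference of -1.38 ± 0.18 (limma adjusted p = 0.00108). A brighter RT1-Bb probe set, which stands for the gene in the list, differed by 0.30 (adjusted p = 0.694). Another RT1-Bb probe set, under the signal filter, ran from 5.83 to 7.33 in iP and from the floor of 4.00 to 4.20 in iNP. The direction for RT1-Bb thus depended on the probe set. RT1-Da, a class II alpha chain gene, differed by 0.65 (adjusted p = 0.472) and on a dimmer probe set by 0.79 (adjusted p = 0.181). Among further class II genes, Cd74 differed by 0.55 on its tested probe set (adjusted p = 0.773). RT1-Ba differed by -0.14 and 0.24 on its tested ones (adjusted p = 0.853 and 0.779). Probe sets of Cd74 and RT1-Ba under the signal filter had differences above 0, the smallest 0.83 (Cd74). The lines overlapped in all of these. Of 25 MHC and antigen processing genes, 18 were tested: 2 fell, 0 rose and 16 did not pass, with 8 at an unadjusted p under 0.05. Of the 18 differences 13 were below 0 and 5 above, where 1441 of all 3174 genes tested were above 0. The median was -0.15 (from -0.17 to -0.11 over the other settings of the fit, with 1 to 5 calls). RT1-Da and Cd74 did not share that direction.

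RT1-CE16, B2m and RT1-Bb each had a probe set on which every iP rat was below every iNP rat. On another RT1-Bb probe set, under the signal filter, every iP rat was above every iNP rat. The promoters of these genes are shown here, from RefSeq on the GRCr8 rat assembly. Each reaches from 250 bases before to 50 after the annotated start. The assembly is of another strain, so the sequence in the iP and iNP lines can differ. Of the 22 called genes 19 have an entry, and RT1-A is not among them. RT1-CE16 is at chr20:3265394-3265693 (minus strand), B2m at chr3:129549080-129549379 (plus strand) and RT1-Bb at chr20:4604069-4604368 (minus strand). Capitals mark matches, on either strand, to 3 motifs: the palindromic kappa B site of the class I enhancer A, the interferon response element (a pair of GAAA blocks with 2 free bases between them) and the CCAAT box. The letters TGACG, the core of a cyclic AMP response element, were searched as well and are not in capitals.
RT1-CE16: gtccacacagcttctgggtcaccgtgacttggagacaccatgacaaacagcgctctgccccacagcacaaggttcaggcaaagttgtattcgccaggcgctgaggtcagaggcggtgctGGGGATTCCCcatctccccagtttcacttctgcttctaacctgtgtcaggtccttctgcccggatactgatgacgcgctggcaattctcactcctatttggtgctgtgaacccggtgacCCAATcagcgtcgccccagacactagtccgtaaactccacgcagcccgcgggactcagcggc
B2m: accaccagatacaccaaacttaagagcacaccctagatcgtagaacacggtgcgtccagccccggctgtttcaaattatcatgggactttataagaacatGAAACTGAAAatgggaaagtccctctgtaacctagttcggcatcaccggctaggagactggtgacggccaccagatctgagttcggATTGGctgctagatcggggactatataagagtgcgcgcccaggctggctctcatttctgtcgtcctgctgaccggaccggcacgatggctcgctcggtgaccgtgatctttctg
RT1-Bb: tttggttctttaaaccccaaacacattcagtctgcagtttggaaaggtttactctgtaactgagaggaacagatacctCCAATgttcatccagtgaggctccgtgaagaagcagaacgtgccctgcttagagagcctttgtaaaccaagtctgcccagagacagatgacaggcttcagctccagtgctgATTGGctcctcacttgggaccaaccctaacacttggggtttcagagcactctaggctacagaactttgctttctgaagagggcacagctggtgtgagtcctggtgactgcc

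The RT1-CE16 promoter held the kappa B site, 131 bases before the start, and a CCAAT box. The B2m promoter held the searched form of the interferon response element 150 bases before the start and a CCAAT box on the reverse strand. The RT1-Bb promoter held 2 CCAAT matches and no match to the others. TGACG was found in the RT1-CE16 and B2m promoters. Over 33469 promoters of this length, 0.114% held this kappa B site, 3.92% this form of the interferon response element, 37.5% CCAAT and 21.2% TGACG. These are matches of letters only. Only the exact letters of each motif were searched, so a promoter without a match may hold another form of the element.

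A marker of microglia and a death receptor gene were higher in iP. Lyz2, the lysozyme gene of macrophages and microglia, ran from 10.61 through 11.30 to 11.44 in iP and from 9.67 through 10.24 to 10.60 in iNP, higher in iP by 1.04 ± 0.17 (limma adjusted p = 0.00575). The lines did not overlap, though the lowest iP value (10.61, animal 5) was next to the highest iNP value (10.60). Of 20 microglia and macrophage markers, 9 were tested, and Lyz2 rose while 8 did not pass (list median 0.09). Among them Ctss, a lysosomal protease gene, differed by -0.07, C1qb, a complement gene, by 0.10 and P2ry12, the purine receptor gene of resting microglia, by -0.63 (adjusted p = 0.523). The summed signal of the microglial markers lay between 13309 and 17239 in iP and between 13967 and 15379 in iNP (exact permutation p = 0.253, adjusted p = 0.593). Their part in the Lyz2 result was not tested. Tnfrsf21, which encodes a death receptor also known as DR6, rose by 0.62 ± 0.09 (adjusted p = 0.00328), with iP between 10.08 and 10.52 and iNP between 9.58 and 9.76. A brighter Tnfrsf21 probe set on the same record differed by -0.12 (adjusted p = 0.796), so the direction was not shared.

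Metabolic genes gave 1 rise and 1 fall. Pgk1, phosphoglycerate kinase of glycolysis, ran from 12.86 through 13.31 to 13.79 in iP and from 11.92 through 12.24 to 12.97 in iNP, and was higher in iP by 0.95 ± 0.18 (limma adjusted p = 0.0262), with overlap between the lines. The same probe set was called in cortex, striatum, hippocampus and amygdala, with differences of 1.17, 1.20, 1.22 and 1.10 (limma adjusted p at most 0.00553). A further Pgk1 probe set, on another record, differed by 0.09 in accumbens and the lines overlapped there too. The Pgk1 call was lost in 9 settings: with no signal filter, with no intensity trend, or without any of iP animals 1, 2 and 3 and iNP animals 9, 10, 11 and 12 (adjusted p up to 0.0834). The other 10 tested glycolysis genes did not pass, among them Pkm (-0.04), and the median of all 11 was -0.03. Sdhaf2, an assembly factor of succinate dehydrogenase, ran from 9.77 through 9.91 to 10.23 in iP and from 10.65 through 10.83 to 11.08 in iNP, with a difference of -0.87 ± 0.10 (adjusted p = 0.000497) and no overlap. Sdhaf2 was the single call among 18 tested respiratory chain genes (median 0.04), where Cox4i1 differed by 0.0022 and Cox8a by -0.13.

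Slc5a3, the myo-inositol transporter gene, was lower in every iP rat than in any iNP rat without being called. Its signal ran from 7.15 through 9.15 to 9.56 in iP and from 9.80 through 10.06 to 10.22 in iNP, a difference of -1.17 ± 0.31 (limma adjusted p = 0.181). The lowest value was iP animal 4, and without it the difference was -0.82 ± 0.13 and called (adjusted p = 0.00751). Phgdh, the first enzyme of serine synthesis, differed by -0.47 ± 0.11 (adjusted p = 0.114), and its other 2 probe sets by -0.49 and -0.42. Of 10 tested genes of amino acid synthesis, 0 passed (3 at an unadjusted p under 0.05; median 0.04).

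The largest fall was that of Tmtc3, an endoplasmic reticulum protein that transfers mannose to cadherins. The Tmtc3 signal ran from 6.08 through 6.60 to 7.09 in iP and from 8.77 through 8.91 to 9.10 in iNP, with a difference of -2.27 ± 0.19 (limma adjusted p = 1.03e-05). Ddx42, an RNA helicase gene, ran from 6.18 through 7.48 to 7.72 in iP and from 8.72 through 9.12 to 9.64 in iNP, with a difference of -1.95 ± 0.27 (adjusted p = 0.00138). Both genes were fully separated by line. Paqr3, a Golgi membrane protein that holds back Raf kinases, ran from 7.17 through 8.10 to 8.54 in iP and from 9.29 through 9.61 to 9.78 in iNP (-1.52 ± 0.21, adjusted p = 0.00163). Lysmd4 was called on both of its probe sets, which lie on 1 sequence record, at -1.76 ± 0.15 (adjusted p = 1.03e-05) and -0.94 ± 0.19 (adjusted p = 0.0319). The second Lysmd4 call was lost in 11 settings: with no signal filter, no intensity trend or the Gapdh covariate, or without any of iP animals 3, 4 and 6 and iNP animals 7, 9, 10, 11 and 12 (adjusted p up to 0.0949).

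Mfsd10, a gene of the major facilitator family of membrane transporters, ran from 8.56 through 8.82 to 9.37 in iP and from 6.44 through 7.45 to 7.97 in iNP, higher in iP by 1.65 ± 0.27 (limma adjusted p = 0.00774). Arpc4, which belongs to the protein complex that starts branched actin filaments, ran from 10.83 through 11.14 to 11.42 in iP and from 10.05 through 10.23 to 10.48 in iNP, higher by 0.89 ± 0.12 (adjusted p = 0.00122). In both the lines did not overlap. Tuba1b, an alpha tubulin gene and the brightest of the calls, fell by 0.36 ± 0.07 (adjusted p = 0.0328), and Tmbim6, a protein of the endoplasmic reticulum that restrains cell death, fell by 0.43 ± 0.08 (adjusted p = 0.0319). The Tuba1b call was lost in 12 settings: with no signal filter, median centring or no intensity trend, or without any animal other than iP animals 3 and 4 and iNP animal 8 (adjusted p up to 0.207). The Tmbim6 call was lost in 15, with median centring, no intensity trend, the Gapdh covariate or all regions in 1 fit, or without any animal other than iP animals 4 and 6 (adjusted p up to 0.212).

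The 7 called probe sets without a single gene symbol were 2 rises and 5 falls. The rises, annotated to several genes each, were the class I probe set L23128_g_at (0.97 ± 0.18, adjusted p = 0.0217) and rc_AI169802_at (0.77 ± 0.11, adjusted p = 0.00233). L23128_g_at lost the call without iP animal 1, iP animal 3 or iNP animal 9 and with the Gapdh covariate (adjusted p up to 0.0949). The largest of the falls was rc_AI639521_at, with a difference of -1.86 ± 0.24 (adjusted p = 0.00108) and no overlap. The probe set rc_AI639330_at, at -1.36 ± 0.27 (adjusted p = 0.0319), ran from 5.96 through 7.28 to 7.96 in iP and from 8.43 through 8.48 to 8.81 in iNP. Its call was lost in 12 settings, among them without iP animals 2 or 6 or any iNP animal left out singly (adjusted p up to 0.147). The other 3 falls lay between -0.95 and -0.76; 1 of them was lost without iNP animal 9 or 11 (adjusted p up to 0.0536) and 1, which overlapped between the lines, in 13 settings (adjusted p up to 0.143).

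Markers of other cell types did not separate the lines. Of 10 tested genes each, astrocyte, myelin and endothelial markers had 0 calls by limma (2, 2 and 0 at an unadjusted p under 0.05) and medians of -0.03, 0.05 and -0.05. The choroid plexus (4 tested), cortical projection neuron (6) and septum and pallidum markers (6) had 0 calls each, with 1, 0 and 0 at an unadjusted p under 0.05. The 3 tested blood transcripts, Hbb, Hbb-b1 and Alas2, differed by -0.27, -0.30 and -0.37 and none was called (2 unadjusted). Their summed signal lay between 33571 and 56008 in iP and between 46822 and 68852 in iNP (exact permutation p = 0.0909, adjusted p = 0.465). The 6 accumbens and ventral striatum markers had 0 calls (1 unadjusted) and a median of -0.07, and heat shock genes (18 tested) 0 calls (3 unadjusted) and a median of 0.03.

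The accumbens was then set against the other 4 regions of the same rats, to ask whether any line difference was larger or smaller here. For each rat the accumbens value was taken minus the mean of its other regions, and the lines were compared on that. By limma 0 of 5244 probe sets (0%) passed, with 177 at an unadjusted p under 0.05 and a smallest adjusted p of 0.661. Against dorsal striatum alone 0 (0%) passed, with 286 at an unadjusted p under 0.05 and a smallest adjusted p of 0.832. Without the 4 cortex and amygdala arrays that correlated better with another region, 0 passed, with 219 unadjusted and a smallest adjusted p of 0.534. No line difference was thus shown to be particular to the accumbens, and a p that misses the threshold does not show that the regions are alike. Of the 30 accumbens calls, 10 were also called in cortex, 21 in striatum, 19 in hippocampus and 18 in amygdala. Over all 5244 probe sets, these regions had 12, 44, 35 and 38 calls. In all 4 of them 9 of the 30 were called, and in none of them 5.

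Akap11 had the smallest p against the other regions, with a line difference larger in accumbens by 0.85 ± 0.17 (adjusted p = 0.661). Its difference was 3.24 in accumbens, 2.16 in cortex, 2.73 in striatum, 2.37 in hippocampus and 2.25 in amygdala. RT1-Bb on the called probe set differed by -1.38 in accumbens and by -0.57, -0.44, -0.40 and -0.93 in cortex, striatum, hippocampus and amygdala. Its contrast against the other regions was -0.80 (adjusted p = 0.999). Without the array of iP animal 1 its amygdala difference was -1.10 (limma adjusted p = 0.0121). Without that of iP animal 5 its cortex difference was -0.545 (adjusted p = 0.455). Gsta4 differed by less in accumbens (-0.88) than in those regions (-1.08, -1.35, -1.37 and -1.18), by 0.37 against all of them (adjusted p = 0.999) and by 0.47 against striatum (adjusted p = 0.832). With all arrays, the values of rc_AI639330_at in the other regions, -0.02, 0.33, 0.16 and -0.30, lay near 0. Its contrast of -1.42 did not pass (adjusted p = 0.999). Without the array of iP animal 1 its amygdala value was -0.51, and without that of iP animal 5 its cortex value was 0.11.

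The line differences in Lyz2 were 1.04 in accumbens and 0.73, 0.39, -0.07 and 0.62 in cortex, striatum, hippocampus and amygdala. Slit3 differed by -1.60 in accumbens and by -1.67, -1.05, -0.28 and -0.65 in the same order. For Hs6st1 the values were 4.95 in accumbens and 3.44, 4.36, 4.05 and 4.28; the cortex value was 4.48 without the array of iP animal 5. Tmtc3 showed -2.27 in accumbens and -2.41, -2.69, -1.85 and -2.06 elsewhere. None of these 4 genes passed the test against the other regions, among them Hs6st1 (0.89), Slit3 (-0.70) and Lyz2 (0.63), with an adjusted p of 0.999 for each of these 3.

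**Figure D5:**
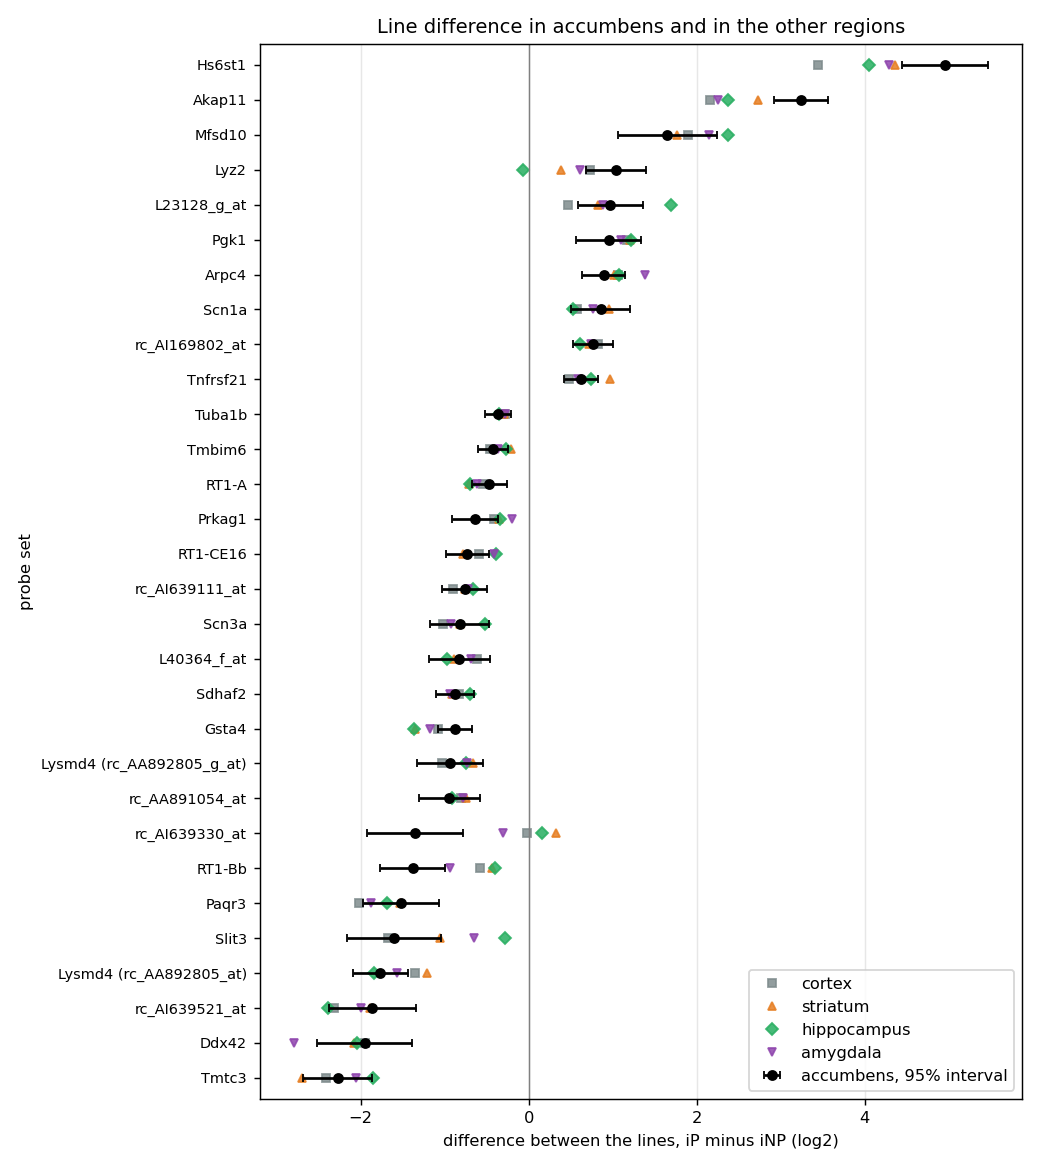
Difference between the lines (x axis, iP minus iNP, log2) of the 30 called probe sets (y axis), in accumbens (black, with 95% interval) and in the other 4 regions (coloured markers); the probe sets were chosen on the accumbens values. The coloured markers lie near the accumbens value for most probe sets, and those of rc_AI639330_at lie near 0, between -0.30 and 0.33.

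Other genes with small p-values against the other regions were Pttg1 (a securin gene; -1.33), Bmp6 (a growth factor gene; 0.67), Pip4p1 (0.57) and C1r (a complement protease gene; -0.59), all with an adjusted p of 0.999. In accumbens alone their line differences were -0.92, 0.21, 0.37 and -0.22, none of them called. Against striatum, C1r (-0.98) and Eif4h (a translation initiation factor gene; -0.73) had small p-values and did not pass (adjusted p = 0.832 for both).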

How the data were processed

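Total RNA was hybridised, per the labels' protocols, as biotin-labelled cRNA to an Affymetrix rat array, 1 rat per array. The deposited values are linear intensity per probe set; which program computed them is not stated in these sources. Each accumbens array had a 2% trimmed mean of 1000.0, so no scaling was added. Intensities under 16 were set to 16 and log2 transformed. Source names call every array iNP-1, in conflict with the titles, and were ignored. Of 8799 probe sets, 59 controls and the 40% dimmest others by their mean over all arrays were dropped, leaving 5244. Among 8740 that are not controls, 7006 carry 1 symbol, 308 several and 1426 none, and 6985 matched the GRCr8 gene table.

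Lines were compared with limma 3.58.1 in R 4.3.3 with an intensity trend, at a two-sided Benjamini-Hochberg adjusted p under 0.05 over all probe sets. For contrasts between regions, each region was first centred on the mean of its line means. Array measures were tested by exact permutation. The scripts were tested on simulated data. Same-numbered arrays come from the same rat, per the titles; the correlation of residuals between accumbens and striatum ran from -0.079 to 0.304, below 0 in 2 of 12 rats. No pair of arrays was identical, and precision is limited by the number of rats.

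The rule for named genes took all calls, the 10 and 5 smallest p-values against the other regions and against striatum (those with 1 symbol), in each list the called and the 2 brightest uncalled genes, and 16 genes fixed by name, with the brightest probe set standing for a gene. Other probe sets of these genes, RT1-CE12, B2m, RT1-Da, RT1-Ba, Cd74 and Alas2 were named after their values were seen. Members and lists were chosen with earlier results of these data known. Alternatives covered the filter, floor, scaling, variance model, RNA quality, fits of all regions and leaving out each animal.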

Additional observations from a re-analysis of the deposited data

Results flagged for a closer look

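Within each line of 6 rats, the named genes and array measures were searched for a single rat far from the others by Dixon's ratio; 18 of 234 such tests found one, and chance alone gives about 1 in 20. Of these, 8 fell on iP animal 4, 3 each on animals 1 and 7, 2 on animal 9 and 1 each on animals 5 and 11.

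For iP animal 4, the outlying array measures were the hexokinase 3′ to 5′ ratio of 3.91 (log2; the other iP rats 0.677 to 1.24), the mean correlation of 0.925 with its own group and the summed signal of 10398 over the accumbens and ventral striatum markers (9187 to 9627). Its log2 signal was lowest among the iP rats for Scn3a (9.91), rc_AI639521_at (6.61), Grm3 (9.49) and Slc5a3 (7.15), and highest for Vamp2, a synaptic vesicle gene (14). The part of this array in each result was measured by leaving it out.

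In iP animal 1 the lowest values were those of Maob, a monoamine oxidase gene (10.9), Htr3a, a serotonin receptor gene (8.87), and S100b, an astrocyte gene (14.4). Lyz2 was lowest in iP animal 5 (10.6, against 11.2 to 11.4). In iNP animal 7, Lysmd4 on its dimmer probe set was lowest (9.38), and the median signal (383) and the summed endothelial and mural signal (11896) were highest. In iNP animal 9, Itpr1, a calcium release channel gene, was lowest (11.5) and the summed choroid plexus signal highest (10259, against 5985 to 7405). The probe set rc_AI639330_at was highest in iNP animal 11 (8.81, against 8.43 to 8.51).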

How the results depend on the processing

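The line comparison gave 30 calls. With 60% of probe sets dropped it gave 19, from fewer probe sets tested. With arrays of all regions in 1 fit it gave 51 with the animal as a random replicate block (consensus correlation 0.0495) and 55 with no replicate block, 28 of the 30 in each case. Leaving out 1 animal at a time gave 19 to 37 calls. The other settings gave 23 to 42 calls; the highest, with animals 1, 2, 7 and 8 as a term which with iP animal 4 had the lowest values on the second principal component, was chosen after seeing the data, as was leaving out 4 arrays of other regions. For the 30 called probe sets, 618 combinations of probe set and planned setting stayed called, 120 did not, and 0 reversed. Of 72 named probe sets not called, 3 gained a call in 12 cases, among them Slc5a3 and Phgdh; Phgdh gained it with the replicate block (adjusted p = 0.0133). No scaling moved the median of all probe sets by over 0.1. The contrasts against the other regions and against striatum gave 0 calls in every setting run. Of the array measures, 1 had p under 0.05, and 1 to 3 when an animal was left out. Line and any unrecorded batch cannot be told apart from these labels.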
